A study of Mus musculus with 18 samples.

Results

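The genes described here encode the semaphorins and their plexin receptors, the Slit proteins and their Robo receptors, and the netrins with the Unc5 receptors. A list of 39 such mouse genes was taken by symbol from a table of 35727 gene IDs, and each symbol matched 1 ID. Of the 39, 38 passed the filter on low counts and were tested. The other was Sema5b, which had 2 counts over the lung iEC libraries, 3 over the heart iEC libraries, 3 over the lung EC libraries, 15 over the heart EC libraries and none in fibroblasts of either organ.

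Messenger RNA libraries were sequenced from mouse cells in 6 groups of 3 libraries: lung iECs, heart iECs, lung native endothelial cells (ECs), heart native ECs, lung control fibroblasts and heart control fibroblasts. All were taken at day 7 and kept in EGM2, an endothelial growth medium. The labels spell out neither iEC nor SEG, the word in the titles of the iEC libraries, and they state no strain, age, starting cell, transgene or number of animals. The groups were set against each other to see how far iECs take on the endothelial character of their organ.

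These families were first known as cues that steer growing axons, and blood vessels use the same genes. Semaphorins bind plexins, the secreted class 3 members mostly through a neuropilin as co-receptor, and plexins act on small GTPases and the cytoskeleton. Slit proteins are secreted ligands of Robo1 and Robo2. Robo4 is a divergent member of the Robo family found mainly in endothelium, and Unc5b is a netrin receptor enriched in arteries and in the tip cells of sprouts.

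The promoter windows of 4 genes are shown as examples from the genes that were higher in iECs than in fibroblasts of both organs: Slit2, a ligand, Robo2, a receptor of it, Sema3g, a secreted semaphorin of arterial endothelium, and Robo4. They were not picked by size of change, and Sema6a and Sema7a, whose windows are not shown, changed more than Slit2 in the lung and more than Robo4 in the heart. Each window holds 300 bases, most of them before and the rest after the start of a RefSeq gene model on GRCm38.p6, 5′ to 3′ on the strand of the gene. Capitals mark the letters AGGAAG or their reverse complement CTTCCT, a form of the core that ETS factors such as Erg bind. The Slit2 window lies at chr5:47982905-47983204 on the plus strand, the Robo2 window at chr16:74411776-74412075 on the minus strand, the Sema3g window at chr14:31217623-31217922 on the plus strand and the Robo4 window at chr9:37401722-37402021 on the plus strand.
Slit2: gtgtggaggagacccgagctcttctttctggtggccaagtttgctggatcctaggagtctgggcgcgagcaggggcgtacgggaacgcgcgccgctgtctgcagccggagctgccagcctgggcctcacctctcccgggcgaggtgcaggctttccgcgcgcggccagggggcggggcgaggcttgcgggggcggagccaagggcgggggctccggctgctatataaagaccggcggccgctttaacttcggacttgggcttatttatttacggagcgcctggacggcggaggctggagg
Robo2: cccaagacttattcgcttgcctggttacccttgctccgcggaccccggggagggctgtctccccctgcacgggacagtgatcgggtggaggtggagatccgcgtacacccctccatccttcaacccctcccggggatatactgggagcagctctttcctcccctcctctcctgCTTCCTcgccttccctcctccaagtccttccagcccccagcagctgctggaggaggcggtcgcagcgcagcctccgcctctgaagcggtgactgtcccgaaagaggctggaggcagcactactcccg
Sema3g: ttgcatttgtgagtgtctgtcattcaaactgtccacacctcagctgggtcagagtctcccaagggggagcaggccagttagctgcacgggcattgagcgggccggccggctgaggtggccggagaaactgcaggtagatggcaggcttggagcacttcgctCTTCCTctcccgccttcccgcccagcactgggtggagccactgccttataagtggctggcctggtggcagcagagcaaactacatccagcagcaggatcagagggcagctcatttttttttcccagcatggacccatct
Robo4: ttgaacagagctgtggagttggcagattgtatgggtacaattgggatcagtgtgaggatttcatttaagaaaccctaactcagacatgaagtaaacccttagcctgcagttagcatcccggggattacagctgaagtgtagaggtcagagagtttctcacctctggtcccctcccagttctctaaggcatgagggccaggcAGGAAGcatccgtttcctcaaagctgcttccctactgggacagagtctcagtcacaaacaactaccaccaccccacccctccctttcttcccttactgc
The Robo2, Sema3g and Robo4 windows held 1 match each, and the Slit2 window held 0. Of all 32851 promoter windows of the same length 35.4% held a match on either strand, and of 46 windows for 33 of the 39 genes 18 did. The letters ACAATG and ACAAAG, forms of the core that Sox factors bind, were found in none of the 4 windows on either strand, against 12.6% and 18.7% of all windows. Robo2 has 3 windows in the RefSeq table, of which the one at the GENCODE gene start is shown, and the counts do not say which start a transcript used.

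Library totals ranged from 17747632 to 23775372 estimated counts, and levels below are CPM, counts per 1000000 counts of the library, scaled by the trimmed mean of M values (TMM). A single count was worth 0.0563 CPM at the lowest total. The 14 endothelial markers checked were detected in every group. They made up 0.283% to 0.33% of counts in lung iECs and 0.28% to 0.3% in heart iECs, 0.325% to 0.351% in lung ECs and 0.196% to 0.211% in heart ECs, and 0.00365% to 0.00393% in lung fibroblasts and 0.027% to 0.0294% in heart fibroblasts. In iECs much of this sum came from Erg and Sox17, endothelial transcription factors. Erg averaged 1030 CPM in lung iECs, 85.5 in lung ECs and 0.544 in lung fibroblasts, and 1020 CPM in heart iECs, 51.5 in heart ECs and 8.25 in heart fibroblasts. Sox17 averaged 475 CPM in lung iECs, 14.2 in lung ECs and 0.126 in lung fibroblasts, and 466 CPM in heart iECs, 6.81 in heart ECs and 1.37 in heart fibroblasts. The junction gene Cldn5 had 0.416 CPM in lung iECs, 54.8 in lung ECs and 0.452 in lung fibroblasts, and 0.977 CPM in heart iECs, 27.7 in heart ECs and 3.27 in heart fibroblasts. Against fibroblasts of the same organ, lung iECs had more of 12 of the 14 and less of 0, and heart iECs had more of 10 and less of 2. All 14 were higher in ECs than in fibroblasts of each organ, and 13 of 14 were lower in lung than in heart fibroblasts. The 11 fibroblast markers were detected in all groups, ECs included, at 0.601% to 0.773% of counts in lung ECs and 1.97% to 2.05% in heart ECs. Of 17 macrophage and leukocyte markers, 15 were higher in lung iECs and 15 in lung ECs than in lung fibroblasts, with summed shares of 0.334% to 0.473%, 0.998% to 1.12% and 0.121% to 0.155% of counts. Heart groups held 0.0225% to 0.0436%, and the T cell gene Cd3e was at or near 0 in every group. In bulk RNA, fewer cells of a type and less RNA per cell cannot be told apart.

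Lung and heart iECs differed from the fibroblasts of their organ in most guidance genes, in both directions. In the lung, iECs exceeded fibroblasts in 17 of 38 tested genes and had less of 16 (edgeR quasi-likelihood test, Benjamini-Hochberg adjusted p under 0.05 over 14864 genes). Over all genes tested 25.9% were higher and 24.7% lower. In heart iECs 13 were higher and 13 lower than in heart fibroblasts, where 26% and 24.6% of all genes were. The median log2 change of the 38 genes was 0.08 in lung iECs and −0.05 in heart iECs, next to 0 and 0.02 over all genes. Of the genes that were higher, 12 were shared between organs, which is 70.6% of the lung set and 92.3% of the heart set, and over all genes tested these shares were 60.8% and 60.5%. Of the genes that were lower 11 were shared, 68.8% of the lung set and 84.6% of the heart set, against 60.9% and 61% over all genes. None of the 38 was called in opposite directions in the organs, and of all 14864 genes tested 426 were. With so small a share over all genes, a count of 0 does not set the 38 apart. Markers of other cells moved with the same comparisons. Smooth muscle and pericyte markers were higher for 7 of 9 in iECs of each organ and lower for 2 in the lung and 1 in the heart, with summed shares of 0.349% to 0.437% of counts in lung iECs and 0.0893% to 0.123% in lung fibroblasts, and 0.142% to 0.162% in heart iECs and 0.0273% to 0.0309% in heart fibroblasts. Fibroblast markers were lower in iECs for 11 of 11 in the lung and 10 of 11 in the heart, at 1.21% to 1.66% of counts in lung iECs and 3.49% to 4.25% in lung fibroblasts, and 1.82% to 1.98% in heart iECs and 2.67% to 2.8% in heart fibroblasts. Their part in the guidance gene differences was not tested.

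Nothing in the labels says whether the libraries of a group came from different cultures or mice. The p-values therefore reflect the variation among these libraries, which may be technical. Without one of the libraries in turn 30 of 33 calls in lung iECs and 23 of 26 in heart iECs were kept. The calls lost were those of Sema4g (log2 change 0.36 without lung iEC replicate 2, 0.38 and 0.51 without lung fibroblast replicates 1 and 3), Plxnb1 (0.6 and 0.59 without lung iEC replicates 1 and 2, 0.4 without lung fibroblast replicate 1) and Unc5c (−0.9 without lung iEC replicate 2, −0.87 without lung fibroblast replicate 2) in the lung. In the heart they were those of Sema3f (−0.29 and −0.36 without heart iEC replicates 1 and 3, −0.31 without heart fibroblast replicate 3), Sema6d (−0.4 without heart iEC replicate 1) and the low-count Sema4f. Sema4f had log2 changes of 1.44 to 1.84 without each heart iEC replicate, heart EC replicate 2 or heart fibroblast replicate 1 or 3, and 2.67, still called, without heart fibroblast replicate 2.

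**Figure D1:**
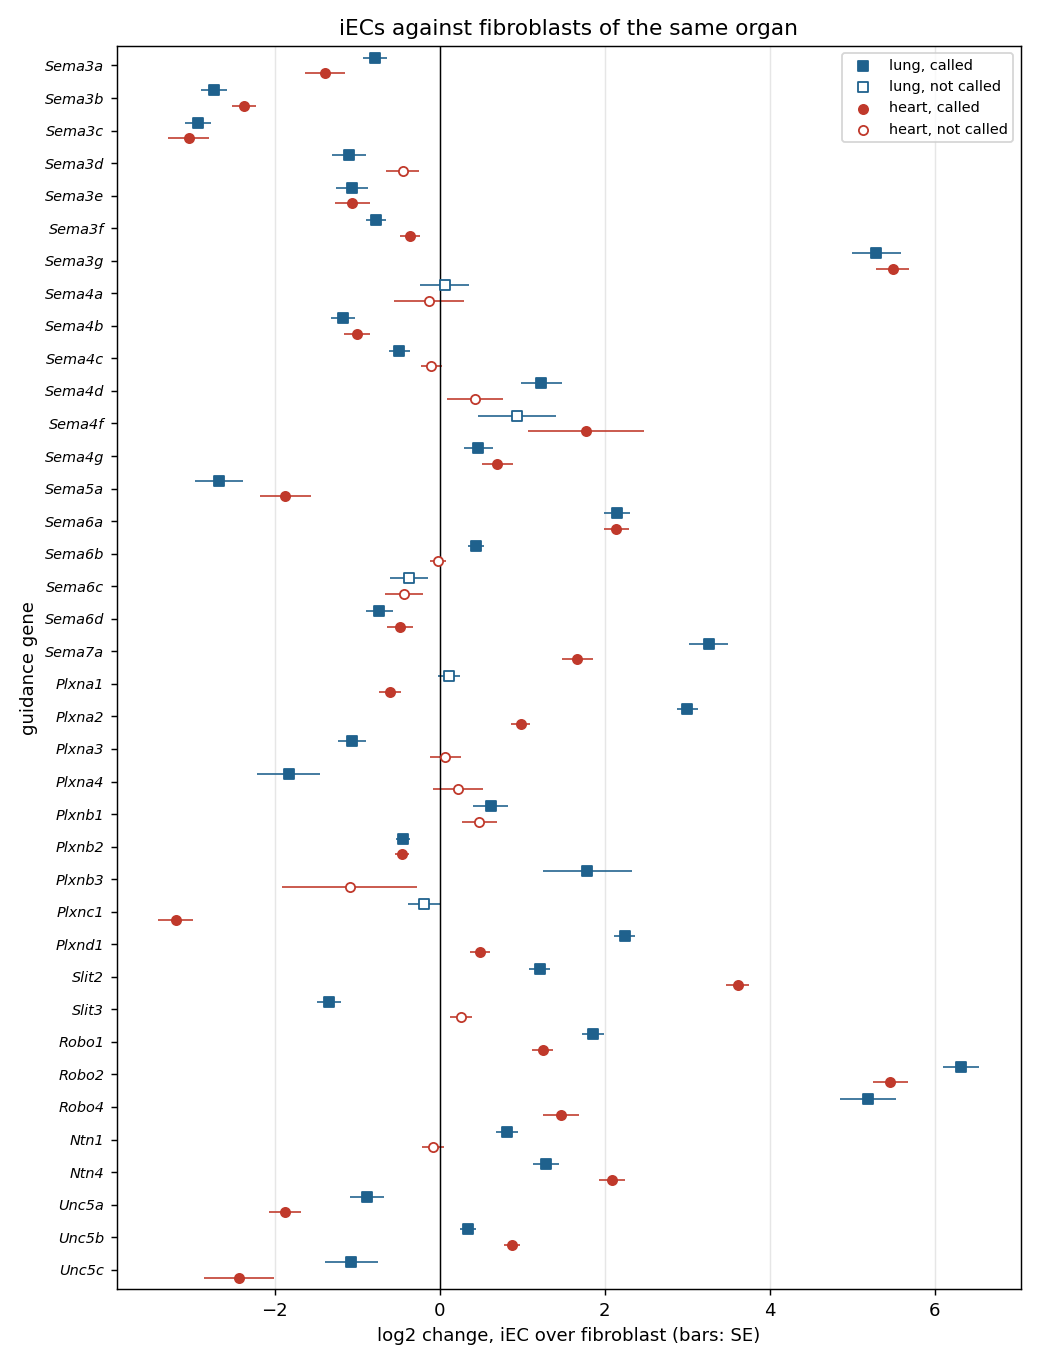
Log2 change of each of the 38 tested guidance genes in iECs over fibroblasts of the same organ, lung as squares and heart as circles, with bars for the SE and filled symbols for adjusted p under 0.05. Robo2 and Sema3g lie above 5 in both organs, and Sema3b and Sema3c below −2 in both.

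The Slit ligand gene Slit2 was high in both kinds of iECs. It stood at 718, 755 and 566 CPM in lung iECs, against 53.6, 55 and 58.1 CPM in lung ECs and 224, 346 and 313 CPM in lung fibroblasts. In heart iECs it stood at 965, 947 and 975 CPM, against 70.6, 66.5 and 68.7 CPM in heart ECs and 73.8, 79.5 and 83 CPM in heart fibroblasts. Every iEC library lay above every EC and fibroblast library of either organ. The log2 change from fibroblasts was 1.21 ± 0.124 in lung iECs (adjusted p = 1.97e-07) and 3.61 ± 0.136 in heart iECs (adjusted p = 1.99e-13). Changes here and below are on the log2 scale, with the SE after ±. Against native ECs, it was 3.61 ± 0.136 in the lung and 3.81 ± 0.137 in the heart (adjusted p = 3.79e-13 and 2.34e-13). Lung fibroblasts had more Slit2 than heart fibroblasts (1.9 ± 0.127, adjusted p = 8.28e-10), and the change toward iECs was smaller in the lung than in the heart (−2.4 ± 0.176, adjusted p = 2.02e-08).

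Slit3, another Slit ligand, followed another order. It had 433, 476 and 354 CPM in lung iECs, 66.9, 72.2 and 82.3 in lung ECs and 797, 1270 and 1120 in lung fibroblasts. In the heart it had 805, 806 and 851 CPM in iECs, 241, 280 and 226 in ECs and 712, 660 and 690 in fibroblasts. Slit3 fell in lung iECs (−1.34 ± 0.14, adjusted p = 3.51e-07), and in heart iECs its change of 0.26 ± 0.138 did not pass the test (adjusted p = 0.134). The difference between those 2 changes was called (−1.59 ± 0.196, adjusted p = 1.07e-05). Native ECs had the lowest levels in each organ, −3.85 ± 0.155 from fibroblasts in the lung and −1.47 ± 0.141 in the heart (adjusted p = 6.83e-13 and 1.84e-07).

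Of the Slit receptors, Robo2, best known from axon guidance and kidney development, was near 1 CPM in both fibroblast groups. Robo2 stood at 67.1, 81.6 and 76.2 CPM in lung iECs, against 5.55, 5.87 and 6.34 in lung ECs and 1.37, 0.719 and 0.767 in lung fibroblasts. Heart iECs had 56.1, 43.7 and 62.7 CPM, against 1.12, 0.769 and 0.611 in heart ECs and 1.31, 1.53 and 0.787 in heart fibroblasts. The iEC libraries did not overlap any other group. Over fibroblasts the log2 change was 6.32 ± 0.22 in the lung and 5.46 ± 0.213 in the heart (adjusted p = 1.33e-13 and 3.87e-13). Over native ECs it was 3.66 ± 0.173 and 5.98 ± 0.222 (adjusted p = 9.88e-12 and 4.41e-13). Lung ECs were above lung fibroblasts too (2.66 ± 0.238, adjusted p = 2.63e-08), whereas heart ECs were not called against heart fibroblasts (−0.52 ± 0.315, adjusted p = 0.187).

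Robo1, the more widely expressed Slit receptor, moved by smaller steps in the same direction. It had 79, 73.9 and 90.7 CPM in lung iECs, 31.5, 27.6 and 34.4 in lung ECs and 16.9, 26.3 and 23.7 in lung fibroblasts. The heart values were 107, 105 and 111 CPM in iECs, 47.3, 55.8 and 51.9 in ECs and 50.4, 43.5 and 41.4 in fibroblasts. In each organ all iEC libraries exceeded all EC and fibroblast libraries. The change from fibroblasts was 1.86 ± 0.133 in lung iECs and 1.25 ± 0.128 in heart iECs (adjusted p = 1.72e-09 and 1.9e-07), and over ECs it was 1.38 ± 0.129 and 1.06 ± 0.127 (adjusted p = 9.56e-08 and 1.82e-06).

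Robo4, the endothelial member, had the reverse order between iECs and ECs. Lung iECs had 12.9, 14.2 and 18.8 CPM, against 130, 138 and 146 in lung ECs and 0.172, 0.958 and 0.0903 in lung fibroblasts. Heart iECs had 24.3, 24 and 25.2 CPM, against 54.2, 43.4 and 53.4 in heart ECs and 9.82, 7.74 and 9.01 in heart fibroblasts. In each organ iECs lay between fibroblasts and ECs without overlap. Robo4 rose over fibroblasts by 5.19 ± 0.338 in lung iECs and by 1.47 ± 0.214 in heart iECs (adjusted p = 2.84e-09 and 2.89e-05). Its log2 change from ECs was −3.17 ± 0.21 in lung iECs and −1.04 ± 0.197 in heart iECs (adjusted p = 4.87e-09 and 0.000386). The size in the lung depends on lung fibroblast replicate 2, the highest of 3 low libraries. Without it the change over fibroblasts was 6.85 in lung iECs and 10.02 in lung ECs, against 8.36 ± 0.319 in lung ECs with all libraries (adjusted p = 2.72e-12). The lung to heart difference between fibroblasts was −4.4 ± 0.357 (adjusted p = 4.68e-08), and −6.06 without that library. The endothelial markers were also lower in lung than in heart fibroblasts, as given above, and their part in this difference was not tested.

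**Figure D2:**
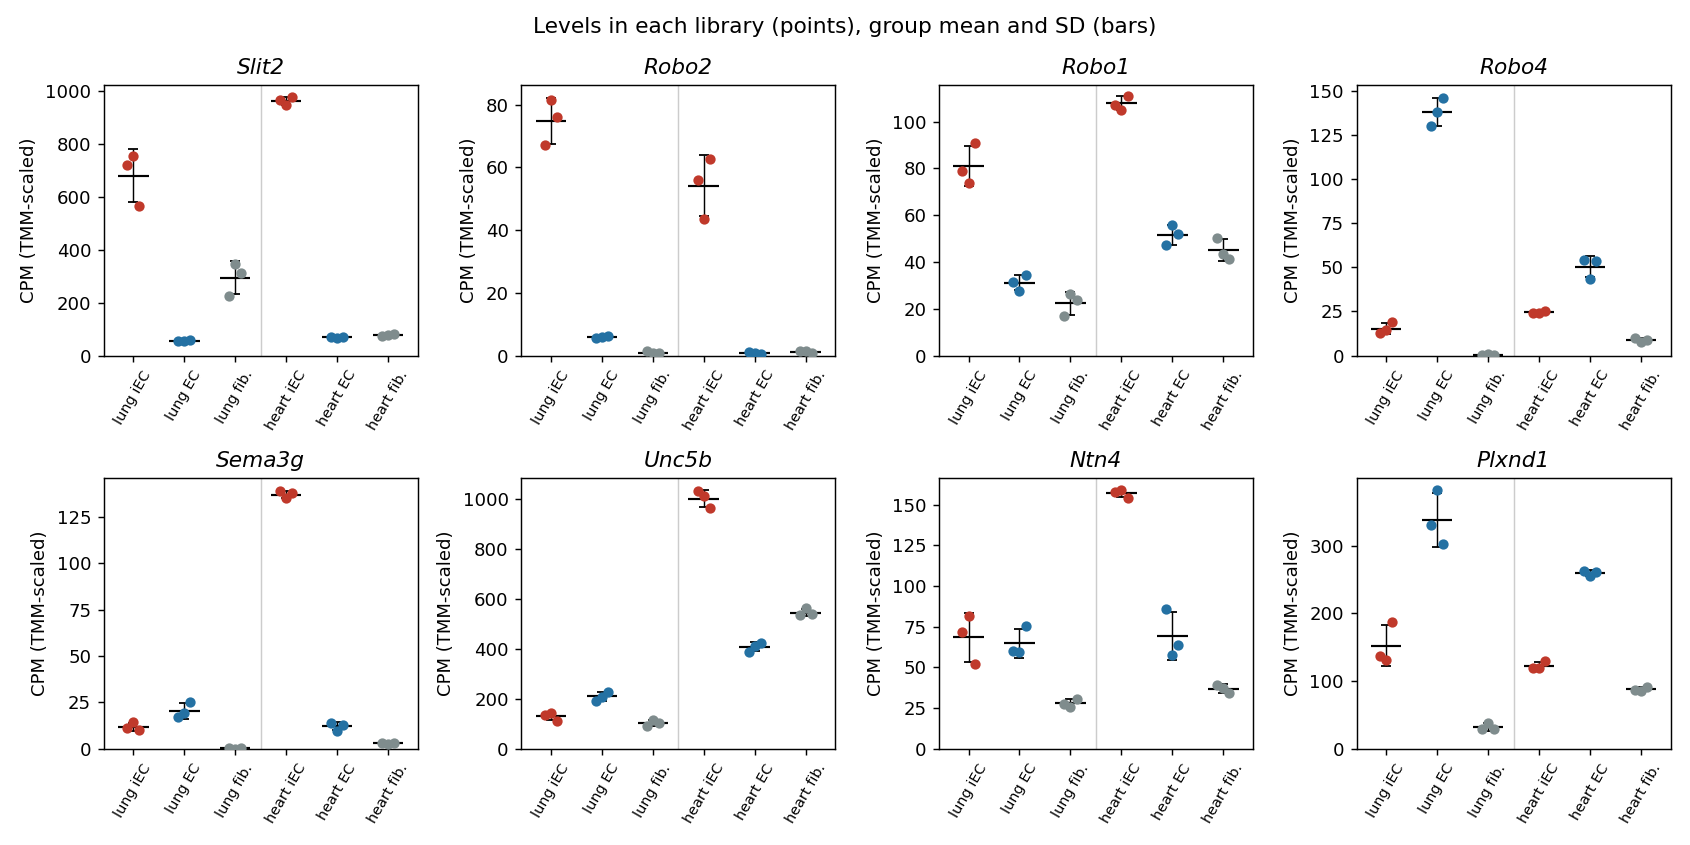
TMM-scaled CPM of 8 guidance genes in each of 18 libraries, with lung groups left of heart groups and, within an organ, iECs, ECs and fibroblasts; points are libraries, bars the group mean and SD (n = 3). Slit2, Robo2 and Robo1 are highest in iECs of each organ, while Robo4 and Plxnd1 are highest in native ECs.

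Among the netrin genes, Ntn4, which encodes a netrin that binds laminins of basement membranes, rose in iECs of both organs. It had 71.9, 81.5 and 52.2 CPM in lung iECs, 59.8, 59.5 and 75.2 in lung ECs and 27.8, 25.7 and 30.4 in lung fibroblasts. Heart iECs had 158, 159 and 154 CPM, heart ECs 86.2, 57.9 and 64 and heart fibroblasts 39.3, 37.2 and 34.1. Heart iECs stood above every other library, and lung iECs overlapped lung ECs. The change over fibroblasts was 1.29 ± 0.157 in lung iECs and 2.09 ± 0.158 in heart iECs (adjusted p = 2.85e-06 and 8.02e-09). Against ECs it was 0.08 ± 0.152 in the lung and 1.18 ± 0.153 in the heart, where it was called (adjusted p = 0.706 and 6.72e-06). Ntn1, the classic netrin, ranged from 13.3 CPM in lung ECs to 49.8 CPM in heart ECs (means). It rose in lung iECs over fibroblasts by 0.82 ± 0.135 (adjusted p = 5.51e-05), with no call in heart iECs (−0.08 ± 0.13, adjusted p = 0.621).

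Unc5b, the vascular netrin receptor, was per kilobase of exon among the 3 most abundant guidance transcripts of each heart group. Lung iECs had 137, 143 and 112 CPM, against 192, 208 and 227 in lung ECs and 89.2, 116 and 103 in lung fibroblasts. Heart iECs had 1030, 1010 and 961 CPM, against 388, 412 and 424 in heart ECs and 533, 561 and 540 in heart fibroblasts. Every heart library was above every lung library. The heart change from fibroblasts was 0.88 ± 0.0982 (adjusted p = 5.63e-07). Lung iECs and lung fibroblasts overlapped, and the lung change of 0.34 ± 0.0988 (adjusted p = 0.00733) was not called in a fit of these groups alone (adjusted p = 0.0692). Relative to ECs of the same organ, Unc5b was lower in lung iECs (−0.68 ± 0.0986) and higher in heart iECs (1.29 ± 0.0991; adjusted p = 1.91e-05 and 5.2e-09).

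Unc5a and Unc5c, receptors known for netrin repulsion in neurons, fell in iECs. Unc5c had 7.54, 6.88 and 13.1 CPM in lung iECs, 39.9, 52.1 and 23.1 in lung ECs and 13.1, 24.3 and 20.3 in lung fibroblasts. In the heart Unc5c had 0.577, 1.46 and 1.17 CPM in iECs, 8.43, 5.6 and 6.5 in ECs and 5.9, 5.48 and 6.11 in fibroblasts. The change over fibroblasts was −2.43 ± 0.425 in heart iECs (adjusted p = 2e-04), with no overlap between those groups. In lung iECs it was −1.07 ± 0.321 (adjusted p = 0.0116), a call lost at −0.9 without lung iEC replicate 2 and −0.87 without lung fibroblast replicate 2, and those groups shared a value of 13.1 CPM. Unc5a had 3.08, 2.19 and 2.07 CPM in lung iECs, 4.96, 6.24 and 6.21 in lung ECs and 3.49, 5.03 and 4.97 in lung fibroblasts. Its heart values were 3.51, 3.17 and 4.45 CPM in iECs, 12, 13.7 and 13 in ECs and 10.7, 14.2 and 15.7 in fibroblasts. The change of Unc5a was −0.88 ± 0.207 in lung iECs and −1.87 ± 0.193 in heart iECs (adjusted p = 0.00162 and 1.93e-07), and in each organ it was also below ECs (−1.25 ± 0.203 and −1.8 ± 0.192; adjusted p = 6.46e-05 and 3.91e-07).

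Of the secreted class 3 semaphorins, Sema3g alone rose, and the 5 genes Sema3a, Sema3b, Sema3c, Sema3e and Sema3f fell in iECs of both organs. Sema3g had 11.1, 14.2 and 10.2 CPM in lung iECs, against 17, 19.5 and 25.3 in lung ECs and 0.573, 0.144 and 0.226 in lung fibroblasts. Heart iECs had 139, 135 and 138 CPM, against 13.9, 9.77 and 12.8 in heart ECs and 3.34, 2.69 and 3.15 in heart fibroblasts. Heart iECs stood far above every other group, while lung iECs lay below lung ECs without overlap. The change over fibroblasts was 5.29 ± 0.294 in the lung and 5.49 ± 0.202 in the heart (adjusted p = 9.89e-11 and 3.49e-13). Without lung fibroblast replicate 1, the highest of its group, the change was 5.95 in lung iECs and 6.75 in lung ECs, against 6.08 ± 0.282 in lung ECs with all libraries (adjusted p = 5.67e-12). Against ECs Sema3g was lower in lung iECs (−0.8 ± 0.168, adjusted p = 0.000869) and higher in heart iECs (3.49 ± 0.174, adjusted p = 3e-11).

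Sema3c, a neuropilin ligand needed for the outflow tract of the mouse heart, had 22.9, 21.1 and 20.1 CPM in lung iECs, 83.4, 94.3 and 65.6 in lung ECs and 146, 168 and 176 in lung fibroblasts. In the heart Sema3c had 0.577, 0.459 and 1.21 CPM in iECs, 16.1, 13.2 and 12.2 in ECs and 6.63, 5.63 and 6.29 in fibroblasts. iECs were the lowest group of each organ. For Sema3c the difference from fibroblasts was −2.93 ± 0.16 in the lung and −3.04 ± 0.251 in the heart (adjusted p = 8.2e-11 and 1.76e-08).

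Sema3a, the founding class 3 member and a ligand of Nrp1 with A-type plexins, had 44.3, 45.6 and 34.6 CPM in lung iECs, 50.2, 46.4 and 55.6 in lung ECs and 67.4, 66.7 and 79.4 in lung fibroblasts. Heart values were 1.42, 1.5 and 0.907 CPM in iECs, 15.7, 12.2 and 13.7 in ECs and 3.97, 3.84 and 2.18 in fibroblasts. Lung libraries were all above heart libraries. Sema3a fell in iECs of both organs, with a change of −0.78 ± 0.148 in the lung and −1.39 ± 0.243 in the heart (adjusted p = 0.00027 and 0.000111).

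Sema3e, which binds Plxnd1 directly and restrains vessel growth, had 29.7, 44.5 and 21.2 CPM in lung iECs, 71.4, 85.3 and 96.7 in lung ECs and 57.2, 64.5 and 76.8 in lung fibroblasts. In heart iECs it had 9.72, 9.84 and 10.1 CPM, in heart ECs 67.7, 79.2 and 81.1 and in heart fibroblasts 19.5, 22.8 and 19.4. Its mean was highest in native ECs of each organ and lowest in iECs. Heart ECs were called over heart fibroblasts (1.88 ± 0.204, adjusted p = 1.84e-06). Lung ECs overlapped lung fibroblasts and were not called over them (0.35 ± 0.192, adjusted p = 0.13). Relative to fibroblasts the change was −1.06 ± 0.197 in lung iECs and −1.06 ± 0.213 in heart iECs (adjusted p = 0.000311 and 0.000617), and against ECs it was −1.41 ± 0.197 in the lung and −2.94 ± 0.214 in the heart (adjusted p = 2.6e-05 and 1.53e-08).

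Sema3b, a ligand of neuropilins, had 3.56, 3.09 and 3.09 CPM in lung iECs, 6.18, 6.32 and 9.38 in lung ECs and 19.1, 23.6 and 22 in lung fibroblasts, and 4.93, 4.92 and 5.57 CPM in heart iECs, 16.2, 14.8 and 13.5 in heart ECs and 28.4, 24.3 and 27.2 in heart fibroblasts. The order was the same in both organs, with fibroblasts highest and iECs lowest. The change from fibroblasts was −2.73 ± 0.156 in lung iECs and −2.37 ± 0.149 in heart iECs (adjusted p = 7.08e-11 and 2.4e-10). Sema3d had 64.1, 84.1 and 50.7 CPM in lung iECs, 56.6, 48.1 and 69.4 in lung ECs and 104, 159 and 163 in lung fibroblasts, and it fell in lung iECs (−1.1 ± 0.202, adjusted p = 0.000301). Heart levels of Sema3d were 47.9, 45.1 and 45.6 CPM in iECs, 34.2, 52.5 and 41.6 in ECs and 66, 61.8 and 61.5 in fibroblasts, with −0.45 ± 0.203 in iECs over fibroblasts (adjusted p = 0.0792). Sema3f, a ligand of Nrp2, stayed within group means of 26.2 and 50.9 CPM, and its changes over fibroblasts were −0.77 ± 0.121 in lung iECs and −0.36 ± 0.122 in heart iECs (adjusted p = 3.59e-05 and 0.0195).

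The membrane-bound semaphorins were split. Sema4g, Sema6a and Sema7a rose in iECs of both organs, and Sema4b, Sema5a and Sema6d fell in both. Sema6a, a transmembrane ligand of Plxna2 and Plxna4, had 26.5, 23 and 30.3 CPM in lung iECs, 24.3, 25.4 and 33.1 in lung ECs and 5.27, 7.04 and 5.64 in lung fibroblasts. Heart iECs had 29.1, 28.4 and 27.8 CPM, heart ECs 21, 20.6 and 19.9 and heart fibroblasts 8.04, 5.58 and 5.63. Both endothelial groups of each organ lay above the fibroblasts, by 2.15 ± 0.155 in lung iECs and 2.14 ± 0.154 in heart iECs (adjusted p = 1.79e-09 and 1.6e-09). Lung iECs were not called against lung ECs (−0.06 ± 0.139, adjusted p = 0.773), and heart iECs were above heart ECs (0.47 ± 0.141, adjusted p = 0.00976).

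Sema7a, a lipid-anchored semaphorin that binds Plxnc1 and integrins, had 11.6, 14.6 and 20.6 CPM in lung iECs, 149, 153 and 139 in lung ECs and 1.66, 1.15 and 2.03 in lung fibroblasts. In the heart Sema7a had 29.4, 27 and 26.8 CPM in iECs, 60.8, 53.2 and 64.1 in ECs and 11, 6.84 and 8.29 in fibroblasts. As for Robo4, iECs lay between fibroblasts and ECs of their organ. Over fibroblasts Sema7a rose by 3.26 ± 0.236 in lung iECs and 1.67 ± 0.189 in heart iECs (adjusted p = 5.92e-09 and 1.29e-06), and iECs stood −3.24 ± 0.185 and −1.1 ± 0.172 from ECs (adjusted p = 3.94e-10 and 5.47e-05).

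Sema4a and Sema4d, semaphorins with roles in immune cells, were highest in lung ECs. Sema4d, a ligand of Plxnb1, had 17.2, 8.81 and 13.8 CPM in lung iECs, 46.5, 30.5 and 27.9 in lung ECs and 4.64, 7 and 5.24 in lung fibroblasts, and 1.91, 2.13 and 1.64 CPM in heart iECs, 4.35, 3.57 and 3.78 in heart ECs and 1.2, 1.05 and 2 in heart fibroblasts. It rose over fibroblasts in lung iECs by 1.23 ± 0.248 and in lung ECs by 2.63 ± 0.25 (adjusted p = 0.000468 and 7.68e-08). In heart ECs it rose by 1.48 ± 0.315 (adjusted p = 0.000949), and heart iECs were not called (0.43 ± 0.335, adjusted p = 0.299). Sema4a had 3.23, 3.22 and 3.96 CPM in lung iECs, 12.9, 16 and 11.3 in lung ECs and 3.38, 2.78 and 3.84 in lung fibroblasts. In the heart Sema4a had 0.178, 0.876 and 0.777 CPM in iECs, 3.36, 2.42 and 2.55 in ECs and 0.94, 0.684 and 0.363 in fibroblasts. It was called in neither iEC group against fibroblasts (0.06 ± 0.295 and −0.13 ± 0.424; adjusted p = 0.895 and 0.825), and ECs were higher than fibroblasts by 2.01 ± 0.287 in the lung and 2.04 ± 0.365 in the heart (adjusted p = 8.92e-06 and 0.000168). The macrophage markers followed the order of Sema4d among the lung groups, at 0.412% of counts on average in iECs, 1.07% in ECs and 0.134% in fibroblasts, and their part in these values was not tested. In heart ECs, where Sema4a and Sema4d also rose, 4 of the 17 markers were higher and 3 lower than in heart fibroblasts.

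Sema5a had 7.97, 9.24 and 4.87 CPM in lung iECs, 5.6, 6.24 and 10.6 in lung ECs and 29.8, 59.5 and 51.5 in lung fibroblasts, and it had 3.99, 2.71 and 3.89 CPM in heart iECs, 9.95, 10.3 and 7.05 in heart ECs and 12.8, 12.1 and 13.9 in heart fibroblasts. Fibroblasts were the highest group of each organ, and the change in iECs was −2.67 ± 0.292 in the lung and −1.87 ± 0.312 in the heart (adjusted p = 1.48e-06 and 0.000115). Sema4b had 12.3, 12.5 and 9.6 CPM in lung iECs, 18.1, 15.5 and 19.5 in lung ECs and 24.7, 26.7 and 25.9 in lung fibroblasts. Heart values of Sema4b were 4.66, 5.55 and 5.09 CPM in iECs, 16, 18.3 and 12.3 in ECs and 8.3, 11.3 and 11.1 in fibroblasts. Each iEC group lay below the other groups of its organ without overlap, with a change from fibroblasts of −1.17 ± 0.149 in the lung and −1 ± 0.162 in the heart (adjusted p = 3.14e-06 and 4.56e-05).

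Sema6d, a ligand of Plxna1 with a part in chick heart development, differed more by organ than by cell type. It had 24.9, 31.5 and 25.7 CPM in lung iECs, 22.4, 17 and 25.7 in lung ECs and 33.9, 55.4 and 46.5 in lung fibroblasts, and 85.2, 98.4 and 103 CPM in heart iECs, 141, 166 and 147 in heart ECs and 136, 136 and 127 in heart fibroblasts. All heart libraries were above all lung libraries. Its changes over fibroblasts were small, −0.73 ± 0.161 in lung iECs and −0.48 ± 0.155 in heart iECs (adjusted p = 0.0012 and 0.0166). Sema6b had 18.9, 19.5 and 20.9 CPM in lung iECs, 28.9, 30.9 and 33.7 in lung ECs and 15.9, 14.1 and 13.7 in lung fibroblasts, and 9.19, 9.47 and 9.63 CPM in heart iECs, 27, 24.4 and 25.3 in heart ECs and 9.4, 8.58 and 10.6 in heart fibroblasts. Native ECs were highest for Sema6b, by 1.1 ± 0.0947 over fibroblasts in the lung and 1.42 ± 0.0986 in the heart (adjusted p = 1.36e-08 and 2.21e-09), while heart iECs overlapped heart fibroblasts.

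The remaining membrane semaphorins were low or moved little. Sema4g had 7.59, 9.28 and 7.33 CPM in lung iECs, 3.36, 2.16 and 2.88 in lung ECs and 5.04, 6.28 and 6.09 in lung fibroblasts, and 4.26, 4.75 and 4.32 CPM in heart iECs, 1.12, 1.59 and 1.11 in heart ECs and 2.56, 2.63 and 3.03 in heart fibroblasts. It was lowest in native ECs, with iECs above them by 1.53 ± 0.186 in the lung and 1.8 ± 0.207 in the heart (adjusted p = 2.36e-06 and 9.7e-07). Sema6c stayed under 6 CPM in every library. It had 3.08, 3.61 and 2.89 CPM in lung iECs, 1.02, 1.47 and 2.13 in lung ECs and 3.49, 4.65 and 4.24 in lung fibroblasts, and 2.84, 4.09 and 4.36 CPM in heart iECs, 1.79, 1.87 and 1.61 in heart ECs and 4.91, 4.63 and 5.75 in heart fibroblasts. ECs were the lowest group, with a change from fibroblasts of −1.41 ± 0.243 in the lung and −1.53 ± 0.243 in the heart (adjusted p = 6.84e-05 and 5.04e-05). Sema4c, a ligand of Plxnb2, had group means of 23.9 CPM in lung iECs to 39 CPM in heart ECs, and Sema4f had at most 2.73 CPM in any library.

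Of the plexin receptors, Plxna2 and Plxnd1 rose in iECs of both organs, and Plxnb2 fell in both (−0.44 ± 0.0838 in the lung and −0.46 ± 0.0838 in the heart; adjusted p = 0.000228 and 0.000173). Plxnd1, the endothelial plexin and receptor of Sema3e, had 137, 131 and 187 CPM in lung iECs, 330, 382 and 303 in lung ECs and 29.8, 38.1 and 28.6 in lung fibroblasts. Heart iECs had 120, 120 and 130 CPM, heart ECs 263, 255 and 261 and heart fibroblasts 86.7, 86.1 and 91.6. The 3 groups of each organ did not overlap, and iECs stood in the middle. Plxnd1 rose over fibroblasts by 2.24 ± 0.129 in lung iECs and 0.49 ± 0.122 in heart iECs (adjusted p = 8.28e-11 and 0.00276), and stood −1.16 ± 0.122 and −1.07 ± 0.122 from ECs (adjusted p = 4.34e-07 and 9.1e-07).

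Plxna2, a receptor for class 3 semaphorins with neuropilins and for Sema6a, had 151, 171 and 172 CPM in lung iECs, 93.4, 103 and 105 in lung ECs and 15.5, 24.6 and 21.4 in lung fibroblasts. In the heart it had 232, 194 and 239 CPM in iECs, 143, 133 and 151 in ECs and 117, 110 and 109 in fibroblasts. In contrast to Plxnd1, iECs exceeded native ECs, by 0.72 ± 0.118 in the lung and 0.64 ± 0.117 in the heart (adjusted p = 7.23e-05 and 0.000195). Over fibroblasts the change was 3 ± 0.129 and 0.98 ± 0.118 (adjusted p = 1.76e-12 and 1.4e-06).

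Plxna4 fell in lung iECs and Plxnc1 in heart iECs. Plxna4, a receptor of class 3 and class 6 semaphorins, had 1.8, 2.62 and 0.675 CPM in lung iECs, 17.2, 21.4 and 27.3 in lung ECs and 3.04, 8.29 and 6.91 in lung fibroblasts, and 17.3, 16.7 and 15.2 CPM in heart iECs, 25.7, 37.1 and 28.3 in heart ECs and 14.9, 12.7 and 14.7 in heart fibroblasts. From fibroblasts the change was −1.83 ± 0.386 in lung iECs (adjusted p = 0.00099) and 0.22 ± 0.304 in heart iECs (adjusted p = 0.584), and the difference between them was called (−2.05 ± 0.493, adjusted p = 0.00637). Plxnc1, the receptor of Sema7a, had 4.51, 6.14 and 4.54 CPM in lung iECs, 6.62, 6.85 and 9.75 in lung ECs and 4.81, 7.52 and 4.97 in lung fibroblasts. In the heart Plxnc1 had 2, 1.58 and 1.47 CPM in iECs, 11.6, 13.3 and 10.9 in ECs and 15.1, 15 and 16.3 in fibroblasts. It fell in heart iECs (−3.2 ± 0.213, adjusted p = 5.44e-10) and was not called in lung iECs (−0.19 ± 0.196, adjusted p = 0.451), with a called difference of 3.01 ± 0.289 (adjusted p = 5.57e-07).

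Plxna3 had 6.88, 5.54 and 5.79 CPM in lung iECs, 2.92, 2.61 and 3.5 in lung ECs and 12.1, 13.3 and 12.6 in lung fibroblasts, and 2.97, 2.75 and 4.1 CPM in heart iECs, 3.45, 2.91 and 3.83 in heart ECs and 3.45, 2.84 and 3.09 in heart fibroblasts. It fell in lung iECs against lung fibroblasts (−1.06 ± 0.166, adjusted p = 3.16e-05). Plxnb2, the most abundant plexin per kilobase of merged exons in every group, had means of 427 CPM in lung iECs, 522 in heart iECs, 395 in lung ECs, 735 in heart ECs, 580 in lung fibroblasts and 716 in heart fibroblasts. Plxna1 had group means of 210 to 320 CPM, Plxnb1 of 8.93 to 17.2 CPM, and Plxnb3 stayed at or under 2.33 CPM in every library. A transcript of the opposite strand overlaps 10.7% of the exon bases of Plxna1 and 7.27% of those of Sema4c. Whether the counting used strand is not given in the sources used here, so their counts may include reads of that partner.

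**Figure D3:**
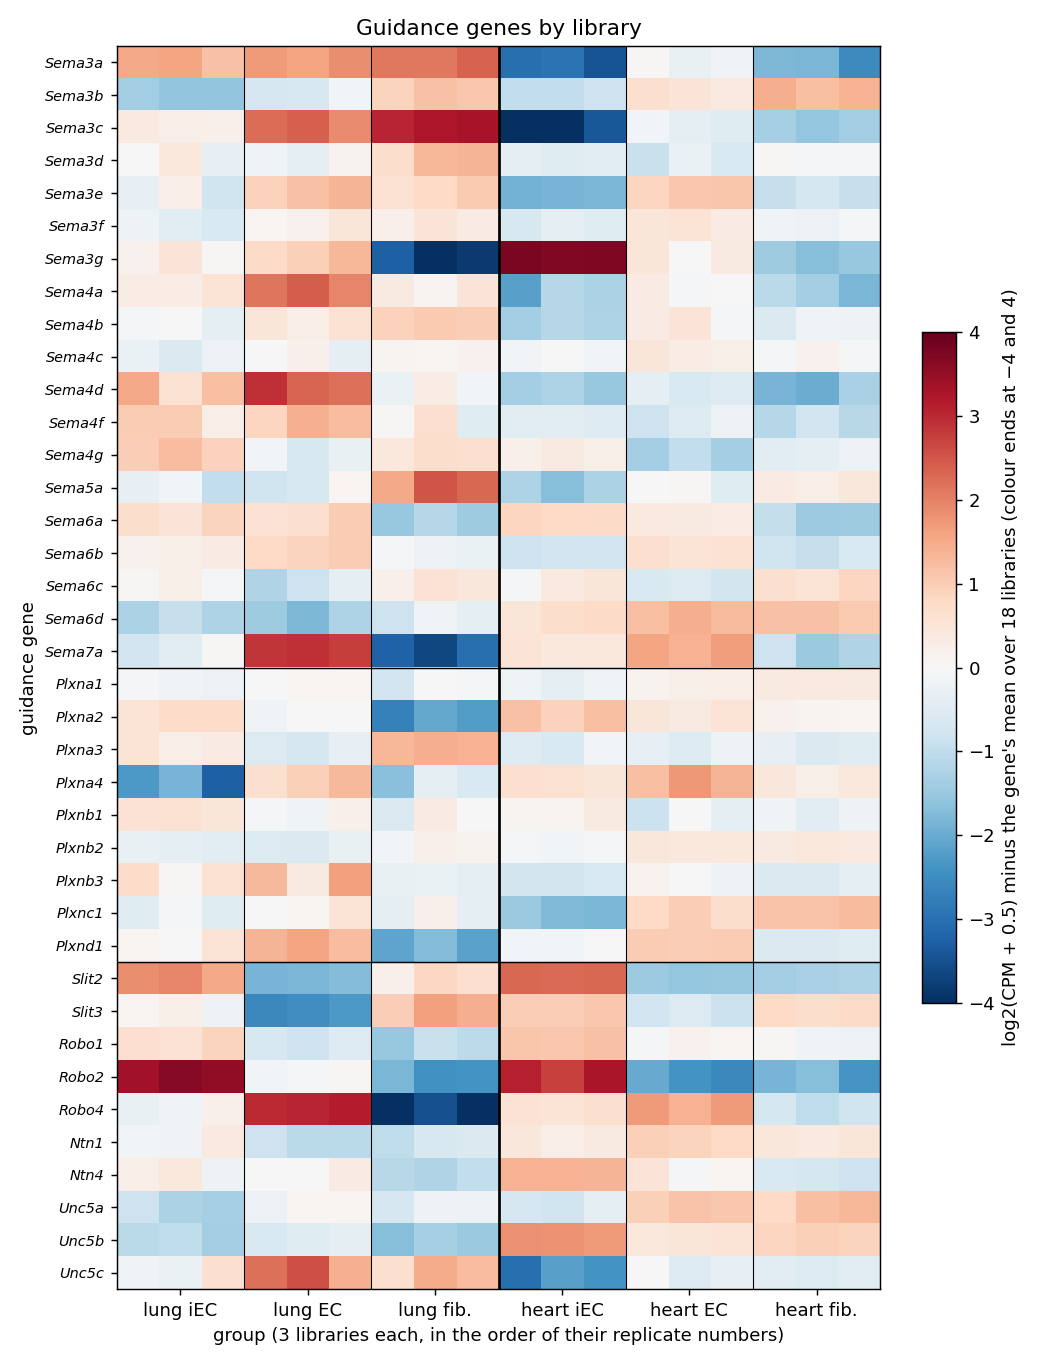
Each row is 1 of 38 guidance genes and each column 1 of 18 libraries, lung groups left of heart groups; colour gives log2(CPM + 0.5) minus the mean of that gene over all libraries. Robo2 and Slit2 are highest in both iEC groups, Robo4 and Sema7a in lung ECs, and Sema3a and Sema3c are lower in every heart group than in any lung group.

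Levels of different genes were set side by side per kilobase of merged exons, a length that covers all annotated transcripts of a gene and can exceed that of the transcripts in use. The order rests on that annotated length, which is 25433 bases over 23 transcripts for Slit2 and 6067 bases over 4 transcripts for Slit3, and no other length was tried. Per kilobase, Slit3 led in lung iECs at 69.4 CPM per kilobase, followed by Plxnb2 at 55.3. Unc5b led in heart iECs at 160 CPM per kilobase, followed by Slit3 at 135 and Plxnb2 at 67.6. In native ECs Plxnb2 led in each organ, at 51.1 in the lung and 95.3 in the heart. Slit3 led in fibroblasts, at 175 in the lung and 113 in the heart.

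Against native ECs of the same organ, iECs had less of more guidance genes than they had more of. In lung iECs 10 were higher and 18 lower than in lung ECs, next to 22.2% and 23% of all genes tested. In heart iECs 12 were higher and 23 lower than in heart ECs, next to 24.5% and 24.4%. The medians over the 38 genes were −0.4 and −0.6 on the log2 scale, against −0.01 and 0.01 over all genes. Slit2, Slit3, Robo1, Robo2, Plxna2, Plxnb1, Sema4g and Sema6c were higher in iECs in both organs. The share of all genes tested that were higher in both was not counted. The calls of 3 genes in each organ were lost when 1 library was left out. For Plxnb1 these were lung iEC replicates 1 and 2 (0.57 and 0.56), lung EC replicates 1 and 2 (0.53 and 0.51), heart iEC replicates 2 and 3 (0.62 and 0.5) and heart EC replicates 1 and 3 (0.36 and 0.58). For Sema4c the changes were as small as −0.17 without lung EC replicate 2 and −0.34 without heart EC replicate 1. For Plxnc1 in the lung the smallest was −0.41 without lung EC replicate 3, and for Plxna4 in the heart −0.72 without heart EC replicate 2. Sema3g and Unc5b were the genes lower in lung iECs and higher in heart iECs, and Ntn1 was the gene higher in lung iECs and lower in heart iECs (1.09 ± 0.136 and −0.53 ± 0.129; adjusted p = 3.25e-06 and 0.00245). The macrophage markers were lower in lung iECs than in lung ECs for 13 of 17 and higher for 0. In heart iECs 6 of them were higher and 3 lower than in heart ECs. Mesothelial markers were lower in iECs than in ECs for 7 of 9 in each organ, and 1 was higher in the heart. Lymphatic endothelial markers were lower in iECs for 6 of 6 in each organ, at 0.0238% to 0.0318% of counts in lung iECs and 0.179% to 0.193% in lung ECs, and 0.0239% to 0.0249% in heart iECs and 0.0877% to 0.0971% in heart ECs. Endothelial markers were lower for 10 of 14 and higher for 4 in the lung, and lower for 7 and higher for 4 in the heart. Epithelial markers were lower for 5 of 5 tested in the lung and 3 of 5 in the heart. Smooth muscle and pericyte markers were higher for 6 of 9 in the lung and 5 of 9 in the heart, and lower for 2 in each. Of 11 fibroblast markers, 6 were higher and 3 lower in lung iECs, and 1 was higher and 5 lower in heart iECs. They made up 1.21% to 1.66% of counts in lung iECs and 0.601% to 0.773% in lung ECs. In the heart the shares were 1.82% to 1.98% in iECs and 1.97% to 2.05% in ECs. Their part in these differences was not tested.

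**Figure D4:**
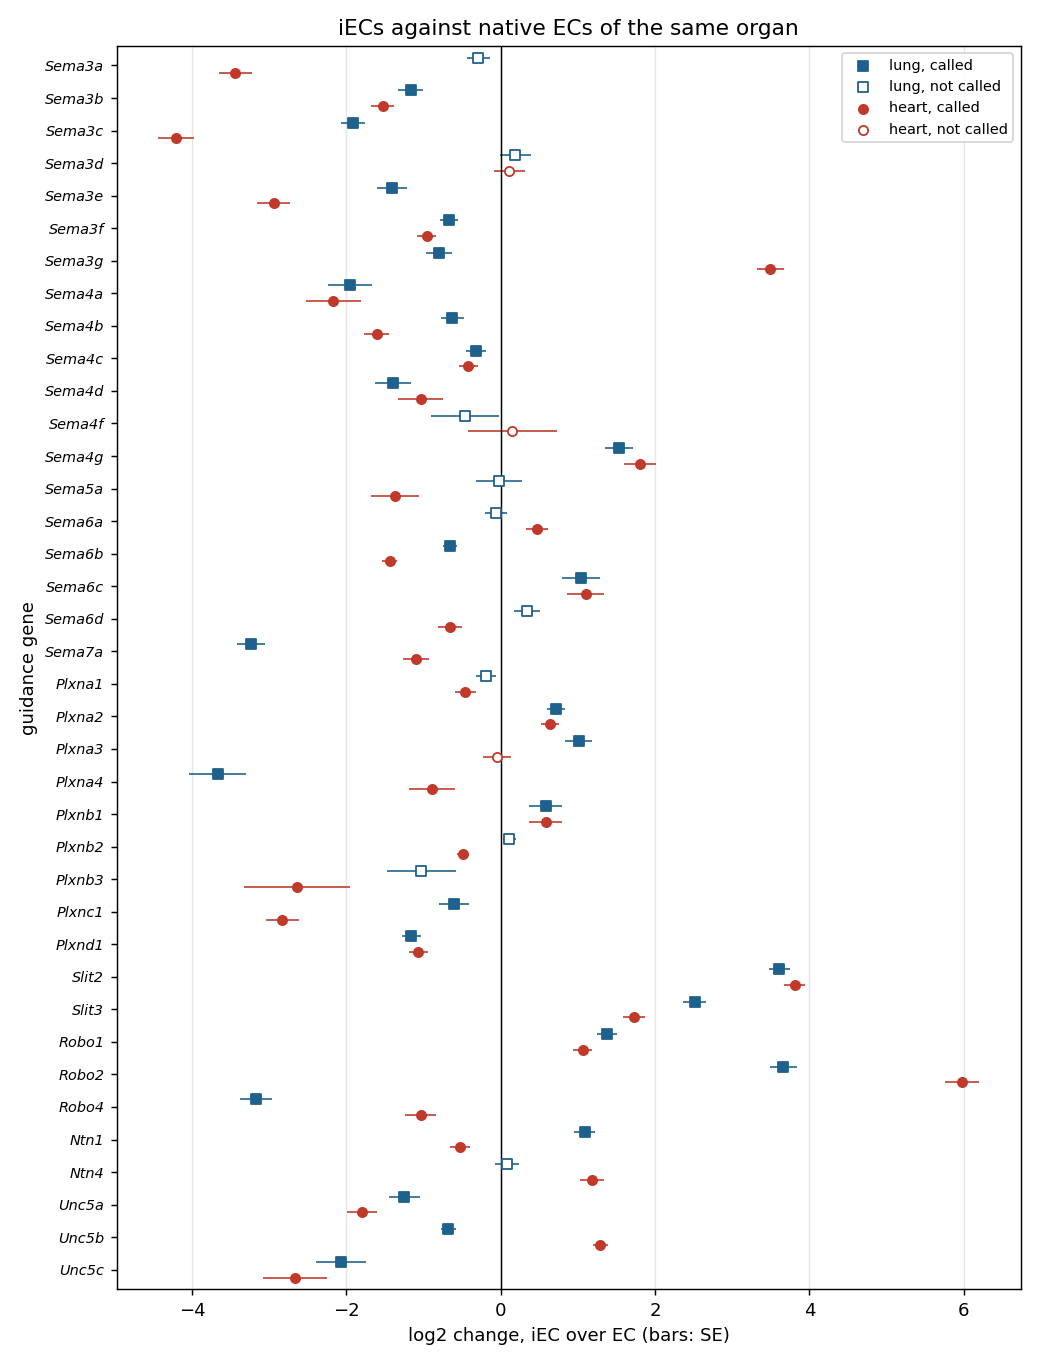
Log2 change of each of the 38 tested guidance genes in iECs over native ECs of the same organ, lung as squares and heart as circles, with bars for the SE and filled symbols for adjusted p under 0.05. Slit2 and Robo2 lie above 3 in both organs, and Sema3g lies on opposite sides of 0 in the organs.

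Native ECs themselves differed from fibroblasts in 17 higher and 13 lower guidance genes in the lung and 18 higher and 6 lower in the heart. Over all genes tested these shares were 29.3% and 28.7% in the lung and 24.2% and 23.3% in the heart. Besides Robo4, Sema7a, Plxnd1 and Sema3g, described above, Sema6a (2.2 ± 0.154 in the lung and 1.67 ± 0.155 in the heart), Ntn4 (1.21 ± 0.157 and 0.91 ± 0.156) and Plxna4 (1.84 ± 0.32 and 1.1 ± 0.303) were higher in ECs of both organs (adjusted p = 8.65e-10, 9.45e-08, 4.29e-06, 0.000142, 0.000152 and 0.00769). Sema3a (−0.49 ± 0.147 and 2.05 ± 0.189), Sema3c (−1.01 ± 0.148 and 1.17 ± 0.177) and Sema4b (−0.54 ± 0.146 and 0.61 ± 0.153) were lower in lung ECs and higher in heart ECs than in fibroblasts (adjusted p = 0.00851, 1.09e-07, 1.5e-05, 3.91e-05, 0.00375 and 0.00328). Unc5b was higher in lung ECs (1.02 ± 0.0993, adjusted p = 7.36e-08) and lower in heart ECs (−0.42 ± 0.0978, adjusted p = 0.00194). In all, 4 of the 38 tested guidance genes were called in opposite directions in the organs, and of all 14864 genes tested 674 were. Calls lost when 1 library was left out were those of Sema4f (1.25 without lung EC replicate 2, 1.04 without lung fibroblast replicate 3) and Unc5c (0.71 without lung EC replicate 2, 0.78 without lung fibroblast replicate 1) in the lung, and of Plxna2, Sema3d and Sema4c in the heart. These 3 were weak, with log2 changes of 0.31 to 0.34, −0.58 to −0.42 and 0.25 to 0.35 in the fits that lost the call, each without 1 of several EC or fibroblast libraries of the heart or, for Sema4c, of other groups. In a fit of heart ECs and heart fibroblasts alone, 10 guidance genes were lower, not 6. Mesothelial markers were higher in heart ECs than in heart fibroblasts for 9 of 9 genes, at 0.0404% to 0.0585% and 0.00507% to 0.00691% of counts. Fibroblast markers were lower in ECs than in fibroblasts for 9 of 11 genes in each organ and higher for 0. In the heart they made up 1.97% to 2.05% of counts in ECs and 2.67% to 2.8% in fibroblasts. The lung shares were 0.601% to 0.773% in ECs and 3.49% to 4.25% in fibroblasts. The part of these markers in the EC values was not tested.

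Lung and heart cultures differed in many of these genes in iECs, in ECs and in fibroblasts. Lung iECs had 15 guidance genes higher and 14 lower than heart iECs, next to 18.9% and 18.9% of all genes tested. Lung ECs had 15 higher and 11 lower than heart ECs, next to 24.2% and 23.7%, and lung fibroblasts had 16 higher and 15 lower than heart fibroblasts, next to 24.6% and 23.9%. Sema3a was higher in the lung by 5.02 ± 0.205 in iECs, 1.87 ± 0.158 in ECs and 4.4 ± 0.186 in fibroblasts (adjusted p = 2.89e-12, 2.32e-08 and 3.2e-12). Sema3c was higher by 4.83 ± 0.227, 2.55 ± 0.161 and 4.72 ± 0.181 (adjusted p = 2.71e-11, 6.77e-10 and 1.53e-12), and Unc5c by 3.09 ± 0.41, 2.48 ± 0.332 and 1.73 ± 0.337 (adjusted p = 2.42e-05, 1.68e-05 and 0.000574). Sema6d was lower in the lung, with changes of −1.8 ± 0.163 in iECs, −2.8 ± 0.168 in ECs and −1.55 ± 0.16 in fibroblasts (adjusted p = 1.67e-07, 5.77e-10 and 4.86e-07), and Unc5b with −2.94 ± 0.105, −0.97 ± 0.0987 and −2.4 ± 0.103 (adjusted p = 4.03e-13, 2.07e-07 and 2.33e-12). Besides these 5, Sema4a, Sema4d, Sema4f, Sema4g and Sema6b were higher in the lung in iECs, ECs and fibroblasts. Plxna2, Plxnb2, Robo1 and Unc5a were lower there in each cell type, and the share of all genes tested with such calls was not counted. Of these calls, that of Sema6b in ECs was lost without heart EC replicate 2 or 3 or lung EC replicate 3 (0.22 to 0.27), that of Robo1 in iECs without heart iEC replicate 3 or lung iEC replicate 1 or 2 (−0.39 to −0.34) and that of Unc5a in iECs without heart iEC replicate 3 or lung iEC replicate 2 or 3 (−0.52 to −0.45). How many of all genes tested had an organ difference of opposite sign in iECs and ECs was not counted. Among the guidance genes these were Sema3g, Sema7a, Plxnc1 and Robo4. Of these, Robo4 lost its call between iECs without lung iEC replicate 1 (−0.57). Other calls lost in this way were those of Robo2 and Sema5a between iECs (0.33 and 0.9 without heart iEC replicate 2, 0.4 and 0.86 without lung iEC replicate 2), of Plxnd1 (0.28 without lung EC replicate 2), Sema4c (−0.32 and −0.24 without heart EC replicate 1 and lung EC replicate 3) and Sema6a (0.41 and 0.28 without heart EC replicate 3 and lung EC replicate 3) between ECs, and of Ntn4 between fibroblasts (−0.46 to −0.34 in 13 such fits). Sema4f between fibroblasts was 3.78 without heart fibroblast replicate 2 and 2.25 without lung fibroblast replicate 2. Markers of macrophages were higher in the lung for 14 of 17 genes in iECs, 14 in ECs and 13 in fibroblasts, and their part in the organ differences was not tested.

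**Figure D5:**
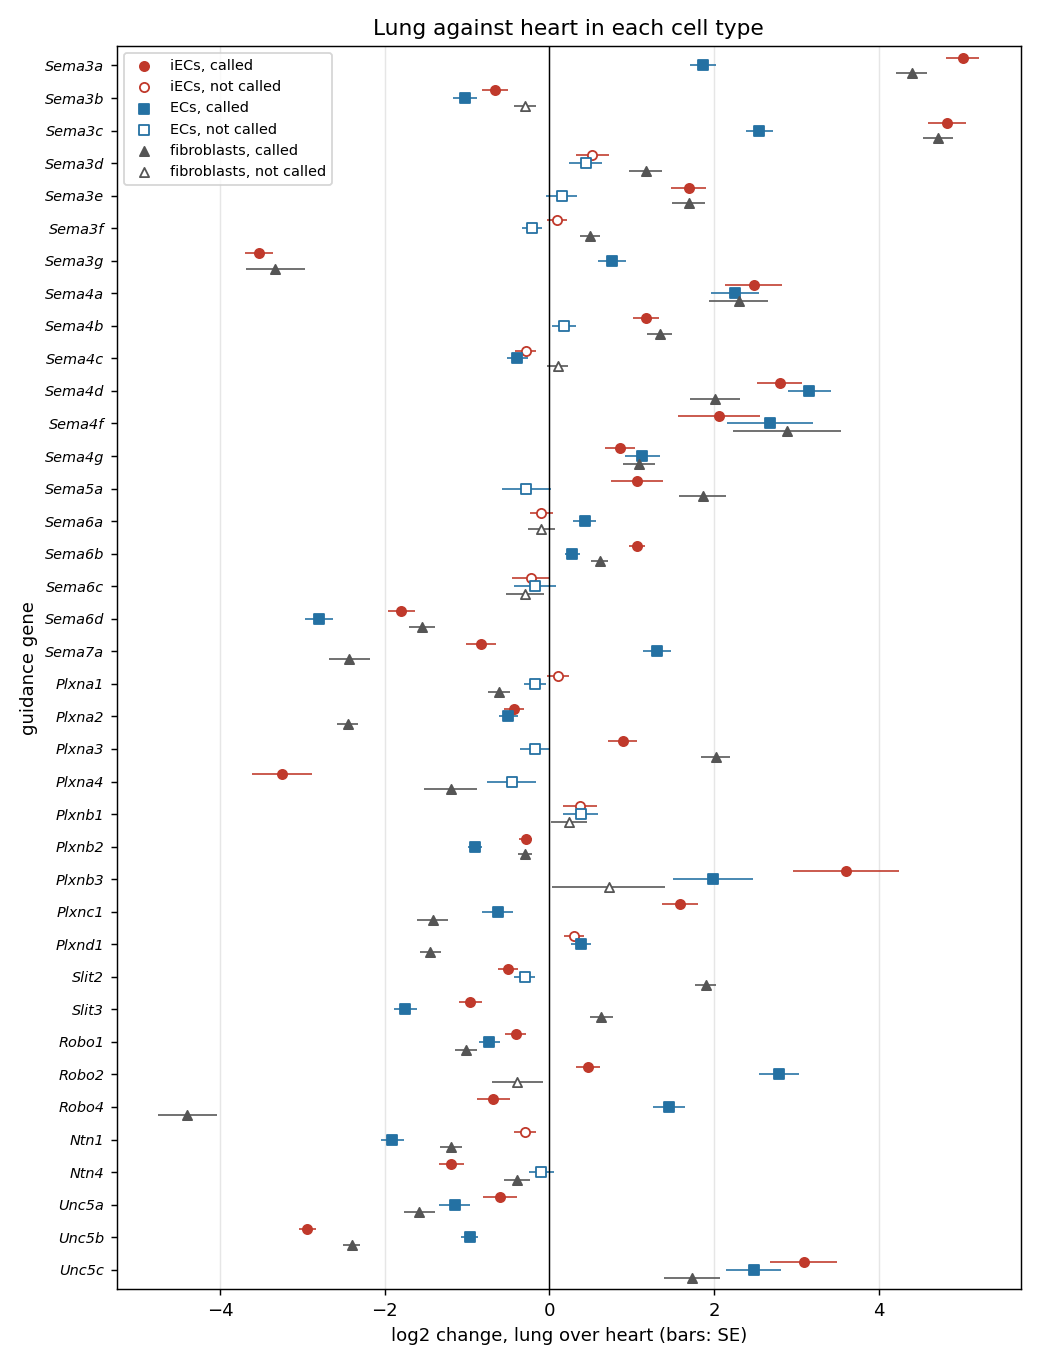
Log2 change of each of the 38 tested guidance genes in lung over heart cells, for iECs (circles), native ECs (squares) and fibroblasts (triangles), with bars for the SE and filled symbols for adjusted p under 0.05. Sema3a, Sema3c and Unc5c lie right of 0 and Sema6d and Unc5b left of 0 in all 3 cell types.

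A test of whether the organ difference in iECs equalled that in native ECs called 12 guidance genes above and 7 below, next to 13.8% and 12.2% of all genes tested. The largest differences below and above 0 were those of Sema3g (−4.29 ± 0.239, adjusted p = 1.01e-09) and Sema3a (3.15 ± 0.261, adjusted p = 8.62e-08). For Sema3g the lung to heart change was −3.53 ± 0.173 in iECs and 0.76 ± 0.168 in ECs. A test of whether the change from fibroblast to iEC was equal in the organs called 11 above and 6 below, next to 12.6% and 12.6% of all genes tested. The change was more positive in the lung for Robo4 (3.72 ± 0.433, adjusted p = 1.13e-05; 5.38 without lung fibroblast replicate 2), Plxnc1, Plxna2 (2.02 ± 0.17, adjusted p = 1.21e-07) and Plxnd1 (1.75 ± 0.175, adjusted p = 9.66e-07), and less positive for Slit2, Plxna4 and Slit3. Lung fibroblasts had less than heart fibroblasts of Robo4 (−4.4), Plxnc1 (−1.42), Plxna2 (−2.45) and Plxnd1 (−1.45). Between iECs the lung was lower for Robo4 (−0.68) and Plxna2 (−0.43), higher for Plxnc1 (1.59) and not called for Plxnd1 (0.3). Robo2 was not called in the test of equal change (0.86 ± 0.343, adjusted p = 0.0778), nor was Sema3g (−0.2 ± 0.541, adjusted p = 0.839).

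Of 75 other genes of these pathways in 3 lists, 72 were tested. Of 18 tested ligands, receptors and co-receptors 7 rose and 5 fell in lung iECs against fibroblasts, and 5 rose and 4 fell in heart iECs. Of 29 genes of semaphorin and plexin signalling 11 were higher and 5 lower in lung iECs, and 10 and 7 in heart iECs, and of 25 genes of Slit, Robo and netrin signalling 11 and 7, and 9 and 8. The median log2 change in lung iECs was 0.42, 0.09 and 0.13 in these lists, and in heart iECs 0.18, −0.07 and 0.18. Over all genes tested 25.9% were higher and 24.7% lower in lung iECs, and 26% and 24.6% in heart iECs, and several of these counts lie near those shares. The neuropilins, co-receptors of class 3 semaphorins and VEGF, moved apart in heart iECs against heart fibroblasts, where Nrp1 rose by 1.18 ± 0.187 and Nrp2 fell by 3.7 ± 0.141 on the log2 scale (SE, adjusted p = 6.53e-05 and 3.05e-13, edgeR). In lung iECs Nrp1 rose by 0.48 ± 0.185 against lung fibroblasts, and Nrp2, which was not called, differed by 0.3 ± 0.125 (SE, adjusted p = 0.0397 and 0.0523, edgeR). Nrp1 had 275, 306 and 248 CPM in lung iECs, 80.8, 79.4 and 121 in lung ECs and 133, 247 and 212 in lung fibroblasts, and 496, 491 and 511 CPM in heart iECs, 104, 129 and 113 in heart ECs and 231, 213 and 215 in heart fibroblasts. Nrp2, the co-receptor of Sema3f and Sema3g, had 119, 89.2 and 143 CPM in lung iECs, 415, 406 and 342 in lung ECs and 88.2, 98.4 and 97.9 in lung fibroblasts, and 12.9, 15.5 and 15.9 CPM in heart iECs, 260, 258 and 248 in heart ECs and 190, 186 and 198 in heart fibroblasts. Heart iECs were the highest group for Nrp1 and, without overlap, the lowest for Nrp2.

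Nrp1 rose in heart iECs over fibroblasts by 1.18 ± 0.187 (adjusted p = 6.53e-05) and Nrp2 fell there (−3.7 ± 0.141, adjusted p = 3.05e-13). In lung iECs the changes were 0.48 ± 0.185 for Nrp1 (adjusted p = 0.0397) and 0.3 ± 0.125 for Nrp2 (adjusted p = 0.0523). The Nrp1 call in the lung was lost in 6 fits that left out 1 library (0.48 without heart iEC replicate 2 or heart EC replicate 3, 0.49 and 0.4 without lung iEC replicates 1 and 2, 0.27 and 0.54 without lung fibroblast replicates 1 and 3). Both neuropilins differed from ECs in each organ, Nrp1 by 1.56 ± 0.19 in lung iECs and 2.12 ± 0.193 in heart iECs and Nrp2 by −1.73 ± 0.127 and −4.11 ± 0.143 (adjusted p = 5.87e-06, 1.97e-07, 4.03e-09 and 2.12e-13). The netrin receptor genes Dcc and Neo1 differed in level. Dcc had no count in fibroblasts of either organ, 35 counts over the lung iEC libraries and 34 over the heart iEC libraries. It had 11 counts over the lung EC libraries and 2 over the heart EC libraries. Against a floor of 3 counts over the fibroblast group, it was at least 10.8-fold higher in lung iECs and at least 8.98-fold higher in heart iECs. Lung ECs were at least 3.35-fold higher and were called over lung fibroblasts (adjusted p = 0.0152, edgeR), a call lost without lung EC replicate 1. Against ECs, Dcc was not called in lung iECs (1.7 ± 0.722, adjusted p = 0.0706) and was higher in heart iECs (3.62 ± 0.955, adjusted p = 0.00591). Neo1 had group means of 53.1 CPM in lung ECs to 197 CPM in heart fibroblasts. It was not called in iECs over fibroblasts (−0.24 ± 0.144 and −0.2 ± 0.142, adjusted p = 0.177 and 0.259). Nor was the plexin-binding GTPase gene Rnd1 (0.78 ± 0.437 and 1.15 ± 0.455, adjusted p = 0.157 and 0.0502). Native ECs had more Rnd1 than fibroblasts (2.27 ± 0.444 in the lung and 3.79 ± 0.478 in the heart). Rnd1 was lower in iECs than in ECs (−1.48 ± 0.428 in the lung and −2.64 ± 0.445 in the heart). The lung iEC libraries had 27.9, 19.6 and 78.3 CPM, and the lung call against ECs was lost without lung iEC replicate 1 (−1.26).

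The largest further changes above 5 CPM were spread over the list of ligands, receptors and co-receptors and the lists of signalling genes. Met, the hepatocyte growth factor receptor that pairs with B-type plexins, rose by 1.83 ± 0.216 in lung iECs and 2.52 ± 0.224 in heart iECs (adjusted p = 4.18e-06 and 1.7e-07), and Dpysl3, of the collapsin response mediator family, by 1.39 ± 0.101 and 1.56 ± 0.102 (adjusted p = 2.09e-09 and 4.63e-10). Flrt3, whose protein binds Unc5 receptors, rose in lung iECs by 1.53 ± 0.288 (adjusted p = 0.000219), and the actin regulator gene Enah in heart iECs by 1.45 ± 0.0986 (adjusted p = 7.49e-10). In lung iECs the adhesion gene Chl1 was at −3.7 ± 0.615, Ablim3 at −1.61 ± 0.241 and Flrt2 at −1.54 ± 0.164 (adjusted p = 1e-04, 2.23e-05 and 6.84e-07). In heart iECs, after Nrp2, the largest declines were those of the Unc5-associated kinase gene Dapk1 (−1.91 ± 0.116, adjusted p = 1.58e-10) and Ntng2 (−1.14 ± 0.206, adjusted p = 0.000146).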

How the data were processed

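Messenger RNA libraries of 18 mouse samples were analysed from 1 table of estimated counts per Ensembl gene, which the authors deposited. The submitters' processing notes name Salmon, DESeq2 and the build mm10; versions and the way transcripts were summed to genes are not given in the sources used here. The deposited estimated counts were whole numbers. The 305 gene IDs without a symbol in GENCODE M21 held 0.0532% of counts and stayed in the fit. Gene lengths came from GENCODE M21 (GRCm38) and promoters from RefSeq (GRCm38.p6).

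Groups followed the labels. Counts of 14864 genes passing filterByExpr were scaled by TMM and fitted with edgeR 4.0.16 (limma 3.58.1, R 4.3.3), 1 coefficient per group over all 18 libraries, with 12 residual degrees of freedom. Each of 11 contrasts was tested by the quasi-likelihood F test, with Benjamini-Hochberg adjustment over all genes and a threshold of 0.05. SEs were taken from the F statistic, as the absolute log2 change over its root. On simulated counts for heart iECs against heart fibroblasts (14864 genes), 81 of 100 genes changed by a log2 of 1 were recovered and 99 of 100 changed by 2. Of 186 calls, 6 fell on unchanged genes. The counts were drawn from a negative binomial model with the dispersions fitted here. All other genes were left unchanged in that contrast, whereas 7530 genes were called in the data. The rates therefore need not hold for the data. The changed genes had at least 1 CPM in heart fibroblasts, so the rates do not cover genes below that level. DESeq2 1.42.0, other scaling, other filters, a replicate block, fits of the compared groups alone and leaving out each library were alternatives.

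Values in every library are given for genes called against fibroblasts in iECs or ECs with at least 2-fold change and 5 CPM in the higher group, and of the other pathway genes changes are given for the largest above 5 CPM and for Nrp1, Nrp2, Dcc, Neo1 and Rnd1. The genes, lists and tests were chosen with earlier results of these data known. Same-numbered replicates did not deviate together, so they were not paired. Replicates of a group correlated at 0.9754 to 0.9894 and differed by more than counting noise.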

Additional observations from a re-analysis of the deposited data

Results flagged for a closer look

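The response of iECs relative to fibroblasts differed between organs in a direct test of that difference for 17 guidance genes (edgeR quasi-likelihood test, adjusted p under 0.05 over all genes). Values are the log2 change in the lung minus that in the heart. It was above 0 for Robo4 (3.72), Plxnc1 (3.01), Plxnb3 (2.88), Plxna2 (2.02), Plxnd1 (1.75), Sema7a (1.59), Unc5a (0.98), Ntn1 (0.91), Plxna1 (0.71), Robo1 (0.61) and Sema6b (0.46). It was below 0 for Slit2 (−2.4), Plxna4 (−2.05), Slit3 (−1.59), Plxna3 (−1.13), Ntn4 (−0.8) and Unc5b (−0.53). Calls of 4 of these genes were lost when 1 library was left out: Plxnb3 (2.6 without heart fibroblast replicate 3 and 2.64 to 3.01 in 10 other such fits), Robo1 (0.52 without lung iEC replicate 3 or heart fibroblast replicate 1), Sema6b (0.42 without lung iEC replicate 3 or lung fibroblast replicate 3, 0.37 without heart fibroblast replicate 3) and Unc5a (0.79 without lung iEC replicate 1). The value of Robo4 was 5.38 without lung fibroblast replicate 2. Robo4, Plxnc1, Plxna2 and Plxnd1 were lower in lung than in heart fibroblasts, with the values given above. Plxnb3 had few counts, 49 over the lung iEC libraries, 13 over lung fibroblasts, 4 over heart iECs and 7 over heart fibroblasts. Its call was also lost with DESeq2 (3.01, adjusted p = 0.0512) and in an edgeR fit without a filter beyond 1 count (2.92, adjusted p = 0.0596).

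The lung to heart difference in iECs differed from that in native ECs for 19 guidance genes in the same kind of test. Values are the log2 difference in iECs minus that in ECs. It was above 0 for Sema3a (3.15), Sema3c (2.28), Plxnc1 (2.22), Ntn1 (1.62), Sema3e (1.54), Sema5a (1.35), Plxna3 (1.06), Sema6d (1), Sema4b (0.98), Slit3 (0.79), Sema6b (0.78) and Plxnb2 (0.61). It was below 0 for Sema3g (−4.29), Plxna4 (−2.79), Robo2 (−2.32), Sema7a (−2.14), Robo4 (−2.13), Unc5b (−1.97) and Ntn4 (−1.1). The call of Sema5a was lost in 7 fits that left out 1 iEC or EC library (1.14 to 1.29). None of the other 18 calls was lost when 1 library was left out. The part of cell type markers in these differences was not tested.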

How the results depend on the processing

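Of 298 calls of guidance genes over the 11 contrasts, 265 kept their direction and their side of the threshold under each of the 24 alternatives that tested them, 33 were lost under at least 1, and none reversed. The fit of the compared groups alone tested 294 of the 298. With each library left out in turn 266 were kept. Counts of genes higher or lower stayed within 1.5 times those reported under the alternatives, except for genes lower in heart ECs than in heart fibroblasts, where a fit of the compared groups alone gave 10 and not 6. The cause was not tested. Without 1 library, lung iECs against lung fibroblasts gave 15 to 18 higher and 15 to 16 lower, heart iECs against heart fibroblasts 12 to 15 higher and 11 to 13 lower, lung ECs against lung fibroblasts 15 to 19 higher and 13 to 14 lower, heart ECs against heart fibroblasts 16 to 19 higher and 5 to 6 lower, lung iECs against lung ECs 9 to 11 higher and 16 to 19 lower, heart iECs against heart ECs 11 to 12 higher and 22 to 23 lower. Between organs, lung iECs against heart iECs gave 13 to 16 higher and 12 to 15 lower, lung ECs against heart ECs 13 to 16 higher and 10 to 13 lower, lung fibroblasts against heart fibroblasts 16 higher and 14 to 16 lower, the organ difference of the iEC response 8 to 12 higher and 6 to 7 lower, and that of iECs against ECs 11 to 13 higher and 7 to 8 lower. Scaling by relative log expression moved the median change of all genes by at most 0.028 on the log2 scale. The fit with the replicate number as a block lost the calls of Sema4c in heart ECs over heart fibroblasts (adjusted p = 0.0547) and in lung iECs over lung ECs (adjusted p = 0.0661) and of Ntn4 between fibroblasts (adjusted p = 0.0602). Deviations of same-numbered libraries correlated at −0.398 to 0.117, over 0.1 in 1 of 45 pairs, and 5 of 18 libraries lay closest to their own number, so the numbers do not show a pairing. Depth limits the genes with the fewest counts, Sema4f, Sema5b, Plxnb3 and Dcc.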
